A study of Rattus norvegicus with 6 samples.

Results

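The genes described here are 38 rat genes of sugar breakdown and of the response to low oxygen, taken as a set by name: the enzymes of glycolysis, lactate production and glycogen use, the glucose and lactate transporters Slc2a1 and Slc16a3, the pyruvate dehydrogenase kinases, and sensors and targets of the hypoxia-inducible factors. Every probe set annotated with the symbol of 1 of these genes alone was used, which gave 115 probe sets, 56 of the 8799 on the U34A array type and 59 of the 31099 on the RAE2.0 type. All 38 genes had at least 1 probe set, of 14372 genes with a single symbol on either type.

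The arrays measured total RNA from 3 cultured populations of olfactory ensheathing cells, the glia that wrap the axons of the olfactory nerve, with 1 array per population on each of the 2 types and 6 arrays in all. OEC Ep was a primary culture from the olfactory nerve layer of Wistar rats aged 21 days, harvested after 1 week and fewer than 3 population doublings. OEC Lp had the same origin and had passed 50 doublings. TEG3 was a clonal line, so 1 clone, made by transfecting cultures from Wistar rats aged 60 days with a plasmid for SV40 large T antigen. All 3 grew in M3 medium (DMEM with 3% serum, 20 µg/ml bovine pituitary extract and 2 µM forskolin, which raises cyclic AMP), so no population lacked forskolin, and the labels name no low-oxygen treatment. Antibody staining put the purity of OEC Ep and OEC Lp cultures above 90%, according to the labels. RNA came from 2 pools per population of 3 cultures each, and in OEC Ep each culture came from a single rat. The labels do not say which pool was applied to which array, or that the RAE2.0 arrays carried RNA of separate cultures, so the p-values below may measure only technical spread.

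Glycolysis converts glucose to pyruvate in the cytosol. Hexokinases trap the sugar, phosphofructokinase commits it, aldolase splits it, and pyruvate is either reduced to lactate or enters mitochondria through pyruvate dehydrogenase, which the pyruvate dehydrogenase kinases switch off. Under low oxygen the prolyl hydroxylases Egln1 and Egln3 lose activity, hypoxia-inducible factors built on Hif1a or Epas1 accumulate, and these raise transcription of many glycolytic genes and of genes such as Vegfa. Hif1a is controlled mainly at the level of its protein, which these arrays do not measure. Glia store glycogen, which the phosphorylases Pygb and Pygl break down.

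Defining markers of the labelled cell type were high in OEC Ep and lower or at the floor in the other populations. Of 7 OEC and Schwann cell markers on both types, 6 fell in OEC Lp and 6 in TEG3 against OEC Ep. On RAE2.0 the summed signal of the 8 measured markers was 74812 (OEC Ep), 1379 (OEC Lp) and 1409 (TEG3), and on U34A that of 7 was 32537, 3706 and 5063, with Sox10 at the floor (the lowest signal used) in OEC Lp on both types and S100b at it in OEC Lp and TEG3 on RAE2.0. Ngfr was at the floor in OEC Lp and TEG3 on RAE2.0 but read 12716, 2569 and 3621 on U34A. Microglia and macrophage markers were also summed lower outside OEC Ep (4 of 7 fell in each comparison with it): 65593, 5056 and 3117 on RAE2.0 for OEC Ep, OEC Lp and TEG3, and 26897, 1484 and 1559 on U34A, with Aif1, Ctss and C1qb at the floor in OEC Lp and TEG3. Neuron markers summed to 37767, 1088 and 4828 on RAE2.0 (3 of 4 fell in OEC Lp, 2 of 4 in TEG3). Astrocyte markers summed to 15835, 67676 and 7485 on RAE2.0, with Gfap and Aqp4 at the floor in OEC Lp and TEG3. Against OEC Ep, 1 of 4 astrocyte markers rose in OEC Lp and none of 4 passed the test in TEG3. Without Gja1, a gap junction gene, the other 5 astrocyte markers summed to 10186, 4512 and 2481 on RAE2.0. On U34A the other 4 summed to 3019, 3868 and 985, so the types differed on OEC Lp. Fibroblast and meningeal markers summed to 82761, 79932 and 41962 on U34A, with 2 of 9 rising and 2 falling in OEC Lp and 2 of 9 falling in TEG3. Without Col3a1, a collagen gene, the other 8 summed to 76077, 39939 and 34120. On RAE2.0 the sums were 131920, 132910 and 38028, and 110110, 53951 and 13645 without Col3a1. The near-equal sums of OEC Ep and OEC Lp thus rested on Col3a1. The ratio of the 3' to the 5' control probe set of Hk1, a measure of RNA integrity, was at least 4.08 for OEC Ep, whose 5' signal lay below the floor, 2.11 for OEC Lp and 2.00 for TEG3 on U34A, and 3.55, 2.07 and 1.77 on RAE2.0. The part of these cell type and RNA differences in the results below was not tested, and in such bulk RNA fewer cells of a type and less RNA per cell cannot be told apart.

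Of the 38 genes 23 could be tested, and 2 of these passed in a comparison. Signals are the authors' linear MAS5 intensities; dim signals were raised to a floor, the 40th percentile of all signals of the type (128.4 for U34A and 168 for RAE2.0), so that a fold against a floored signal can understate the difference. A ratio of single arrays against such a signal is given as at least its value, and a fitted fold is an estimate with its error, not a bound. Signals compare populations within a probe set, not genes with each other. On both types 23 genes were measured and tested with limma among 3131 genes, with Benjamini-Hochberg adjustment and a call at an adjusted p under 0.05. Of the rest, 13 were measured on RAE2.0 only, Pkm on U34A only and Gapdh by control probe sets only; of the 100 probe sets that were not controls 92 exceeded the floor on an array and were used, and 11 of the 23 tested genes had no floored probe set. In OEC Lp against OEC Ep 1 of the 23 rose, Pygb, where 2.11% of all 3131 genes rose, and 1 fell, Aldoc, where 4.02% fell. At an unadjusted p under 0.05, 2 were higher and 1 lower there. That is 13.0% of the 23 against 19.5% of all genes (276 higher and 336 lower). In TEG3 against OEC Ep none of the 23 rose, with 0.639% of all genes rising, and none fell, with 3.7% falling; at an unadjusted p under 0.05, 3 were higher and 3 lower, 26.1% of the 23 against 21.7% of all genes (278 higher and 400 lower). In TEG3 against OEC Lp none rose (0.192% of all genes) and none fell (1.02%); at an unadjusted p under 0.05, 4 were higher and 3 lower, 30.4% of the 23 against 15.4% of all genes (185 higher and 298 lower). No test compares these shares, and counts of 0 or 1 called among 23 genes lie near the background and are not read as a result about the set. The 3 comparisons share arrays pairwise and are not independent of each other.

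The set's median differences were small. The median log2 difference of the 23 genes was 0.13 in OEC Lp against OEC Ep, where that of all tested genes was 0.11, 0.20 in TEG3 against OEC Ep (all genes 0.04) and 0.28 in TEG3 against OEC Lp (all genes -0.01). Over the 36 genes measured on RAE2.0 the medians on that type were 0.21, -0.07 and -0.06 in the same order. Those of all genes on it were 0.095, 0.11 and 0. The medians for TEG3 thus had the opposite sign on RAE2.0. On RAE2.0, where 36 of the genes were measured with 1 array per population and no test, 8 were at least 2-fold higher in OEC Lp than OEC Ep (Pfkm, Pfkp, Pdk1, Pdk3, Vegfa, Ndrg1, Gys1 and Pygb) and 6 lower (Hk2, Aldoc, Slc16a3, Hif1a, Epas1 and Pygl); 10.4% of 11542 genes were that much higher and 10.4% lower. In TEG3 against OEC Ep 8 were at least 2-fold higher (Gpi, Pfkm, Tpi1, Pdk1, Pdk3, Vegfa, Gys1 and Pygb) and 4 lower (Aldoc, Epas1, Egln3 and Ndrg1), with 12.1% and 10.6% of all genes doing so. In TEG3 against OEC Lp 3 were that much higher (Aldoc, Slc16a3 and Pygl) and 5 lower (Ldhb, Pdk2, Egln3, Ndrg1 and Ankrd37), against 9.63% and 8.66%. Values of members of 1 enzyme family are given by role in the following paragraphs; differences between members were not tested.

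**Figure D1:**
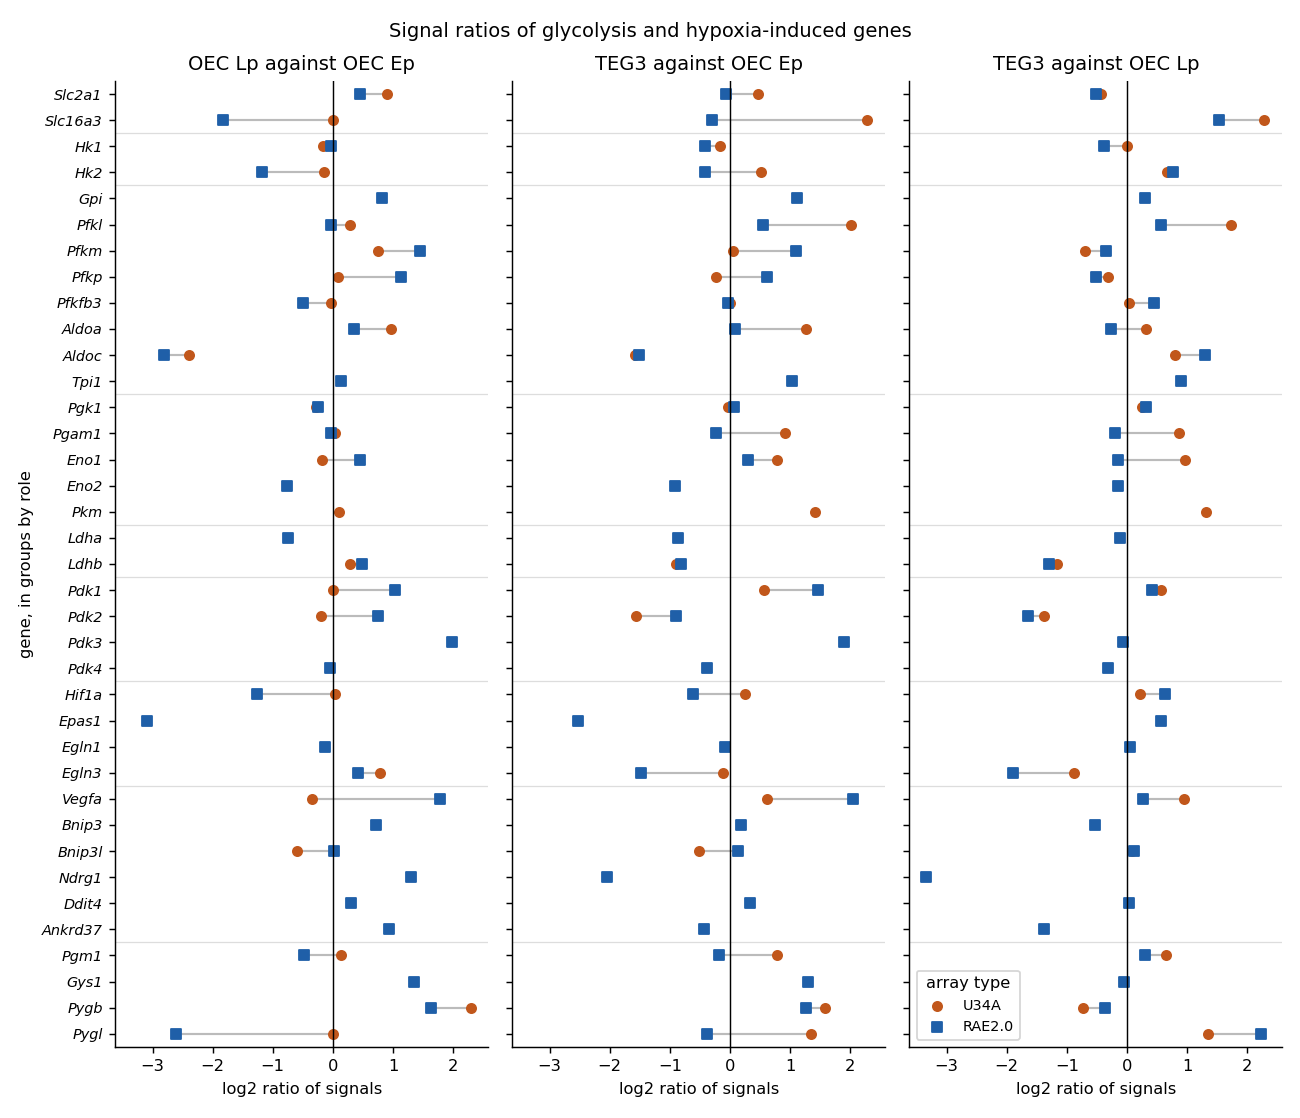
Log2 ratio of signals (horizontal axis) for 37 of the 38 genes (rows, grouped by role; Gapdh, with control probe sets only, is left out) in the 3 comparisons of populations. Circles are the U34A array, squares the RAE2.0 array, each 1 array per population after the floor; a grey line joins the 2 types of a gene, and long lines, as for Slc16a3 and Pygl, mark genes on which the types differed.

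The transporters gave no called difference. Slc2a1, the glucose transporter GLUT1 that carries basal glucose uptake, had RAE2.0 signals of 1867 (OEC Ep), 2548 (OEC Lp) and 1788 (TEG3), and its brighter U34A probe set read 1373, 1934 and 1527. OEC Lp was highest on both types, with a log2 difference from OEC Ep of 0.67 ± 0.313 (SE; limma adjusted p = 0.321). Slc16a3, the lactate exporter MCT4, a known hypoxia target, read 379 (OEC Ep), 379 (OEC Lp) and 1852 (TEG3) by U34A but 600, 156 and 486 on RAE2.0. The types therefore placed OEC Ep differently, level with OEC Lp on one and highest on the other, while TEG3 exceeded OEC Lp on both, 3.76-fold in the combined fit with OEC Lp floored on RAE2.0 (limma adjusted p = 0.252). The hexokinases gave no called difference: Hk1, the housekeeping form, had a log2 difference of -0.10 ± 0.299 in OEC Lp and -0.29 ± 0.299 in TEG3 against OEC Ep (limma adjusted p 0.897 and 0.640). Hk2, the inducible form, read 477, 210 and 358 on RAE2.0 and 1317, 1079 and 1661 for the brighter of its U34A probe sets in OEC Ep, OEC Lp and TEG3. OEC Lp was lowest for Hk2 on both types, at a log2 difference of -0.67 ± 0.376 from OEC Ep (adjusted p = 0.420).

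In the upper, sugar-splitting part of glycolysis Aldoc passed the test in OEC Lp against OEC Ep, and no other aldolase or phosphofructokinase that was tested passed in any comparison. Aldoc, the aldolase typical of brain, read 643 (OEC Ep), 188 (OEC Lp) and 289 (TEG3) by one U34A probe set, 1032, 120 and 255 by the other, and 1174, 30 and 413 on RAE2.0. All 3 probe sets ordered the populations in the same way, with OEC Ep highest and OEC Lp lowest. The gene fell in OEC Lp against OEC Ep 6.05-fold in the fit (log2 difference -2.60 ± 0.309 SE, OEC Lp floored in 2 of the 3 probe sets, limma adjusted p = 0.0134, lower on both types). Against OEC Ep, TEG3 was 2.92-fold lower but did not pass (limma adjusted p = 0.0580), and it was 2.07-fold above OEC Lp (adjusted p = 0.207). The call in OEC Lp was lost when any 1 of the 6 arrays was left out (adjusted p 0.0635 to 0.257, log2 difference -2.82 to -2.37), with no floor (0.117), with the floor at the 20th percentile (0.0537), with no filter on dim probe sets (0.134), without the array-type block (0.295) and with only the 4 arrays compared (0.0635). The summed OEC, macrophage, neuron and muscle-like markers were also lower in OEC Lp on both types, and their part in this result was not tested.

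The 250 bases before the annotated start of Aldoc are shown because this was the 1 gene of the set that fell, and because they hold 3 copies of the core of the hypoxia response element, the sequence that hypoxia-inducible factors bind. Sequences are the sense strand, 5′ to 3′, from the RefSeq annotation of build GRCr8, a build on which no array value depends, and capitals mark ACGTG or GCGTG on either strand (their reverse complements are CACGT and CACGC). Aldoc lies on the plus strand and its window is chr10:63715294-63715543.
Aldoc: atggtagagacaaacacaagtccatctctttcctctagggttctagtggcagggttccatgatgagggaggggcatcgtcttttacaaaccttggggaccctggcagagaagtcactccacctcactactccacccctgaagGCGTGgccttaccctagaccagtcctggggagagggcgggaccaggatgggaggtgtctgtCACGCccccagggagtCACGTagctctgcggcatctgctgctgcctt

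Aldoa, the ubiquitous aldolase, read 2332 (OEC Ep), 4534 (OEC Lp) and 5621 (TEG3) by U34A and 29367, 37292 and 30981 on RAE2.0. OEC Ep had the lowest Aldoa signal on both types, opposite to Aldoc, at log2 differences of 0.65 ± 0.383 (OEC Lp) and 0.67 ± 0.383 (TEG3; adjusted p 0.441 and 0.372). Among the phosphofructokinases, Pfkl, the liver isoform, read 642, 784 and 2594 on U34A and 723, 711 and 1058 on RAE2.0 in OEC Ep, OEC Lp and TEG3. TEG3 was highest on both types, 2.43-fold above OEC Ep and 2.22-fold above OEC Lp in the combined fit (limma adjusted p 0.176 and 0.300). Pfkm, the muscle isoform, instead peaked in OEC Lp: its brighter probe sets read 722, 1615 and 947 on U34A and 1074, 2423 and 1757 on RAE2.0, and its difference of OEC Lp from OEC Ep was 2.15-fold (log2 1.11 ± 0.367, adjusted p = 0.181). The 2 Pfkm probe sets on U34A differed in sign between TEG3 and OEC Ep. Pfkp, the platelet isoform, read 2239, 4900 and 3422 on RAE2.0 while both its U34A probe sets gave a gene-level signal that stayed within 1.17-fold of OEC Ep (402, 427 and 344). Pfkfb3, which makes the allosteric activator of phosphofructokinase, was not called (log2 -0.26 ± 0.308 in OEC Lp and -0.02 ± 0.308 in TEG3 against OEC Ep). Its U34A signal was near the floor, while its brighter RAE2.0 probe set read 692, 350 and 442. Its probe sets had opposite signs on U34A in both comparisons with OEC Lp, and on RAE2.0 in TEG3 against OEC Ep. The remaining enzymes of this stretch were on RAE2.0 alone. Gpi, which converts glucose 6-phosphate to fructose 6-phosphate, read 6897, 12170 and 14996, and Tpi1, which interconverts the triose phosphates, read 17174, 18780 and 35144. TEG3 was highest for both, 2.17-fold and 2.05-fold above OEC Ep, from 1 array per population.

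**Figure D2:**
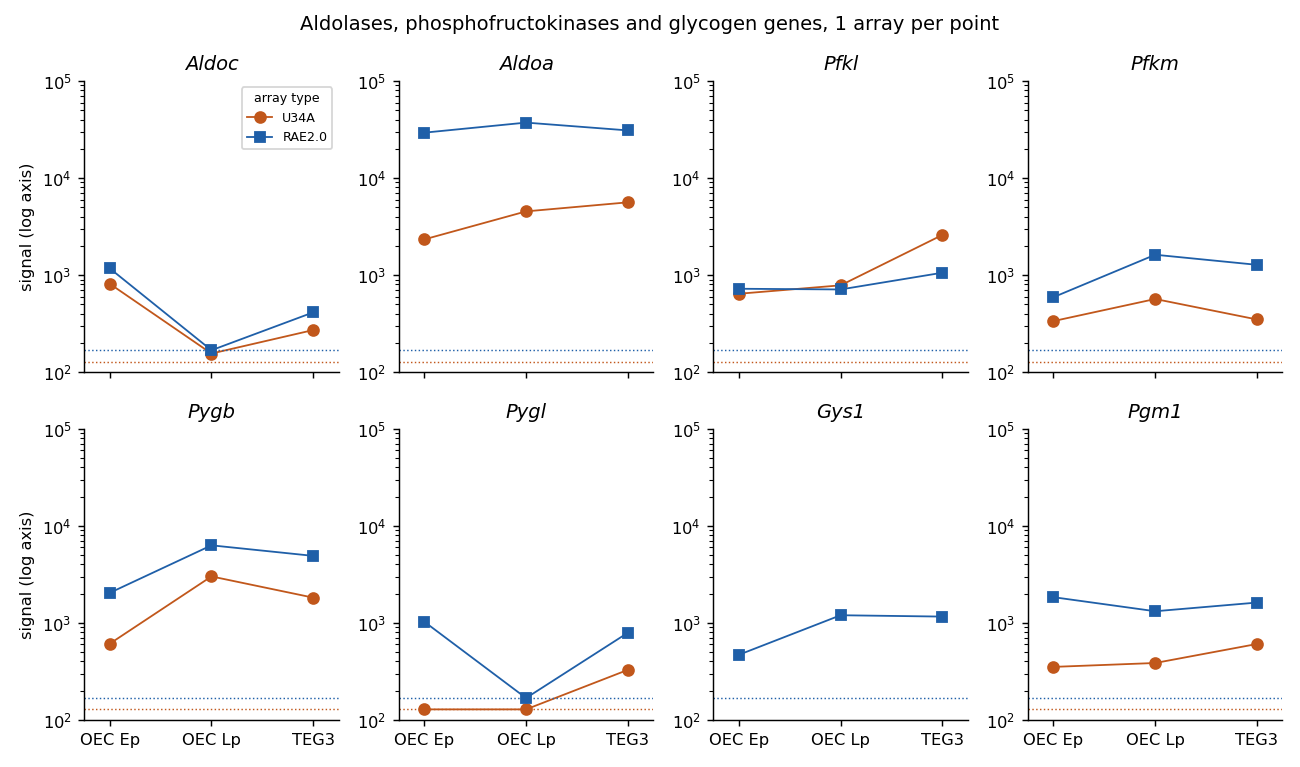
Gene-level signal (log axis, after the floor, dotted lines) of Aldoc, Aldoa, Pfkl, Pfkm, Pygb, Pygl, Gys1 and Pgm1 in OEC Ep, OEC Lp and TEG3, 1 array per point, circles for U34A and squares for RAE2.0. Aldoc has its maximum and Pygb its minimum in OEC Ep on both types, while Pygl differs between types in OEC Ep.

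In the lower, energy-yielding steps no tested gene passed in any comparison. Gapdh, whose product makes the first high-energy intermediate, was present as 5′, middle and 3′ control probe sets. These read 17247, 22323 and 33741 in OEC Ep, 28915, 38212 and 43979 in OEC Lp and 42186, 58316 and 64988 in TEG3 for U34A. The same positions of RAE2.0 gave 41694, 35992 and 42362, then 46947, 41566 and 46066, then 60532, 57176 and 61648. At every position TEG3 was highest and OEC Ep lowest on both types. With control probe sets kept in the fit Gapdh was 1.86-fold higher in TEG3 than OEC Ep (log2 0.89 ± 0.319, limma adjusted p = 0.192). The 3′ to 5′ ratio of Gapdh was 1.96, 1.52 and 1.54 on U34A and 1.02, 0.981 and 1.02 on RAE2.0 in the same order, so on U34A it was highest where the signal was lowest.

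**Figure D3:**
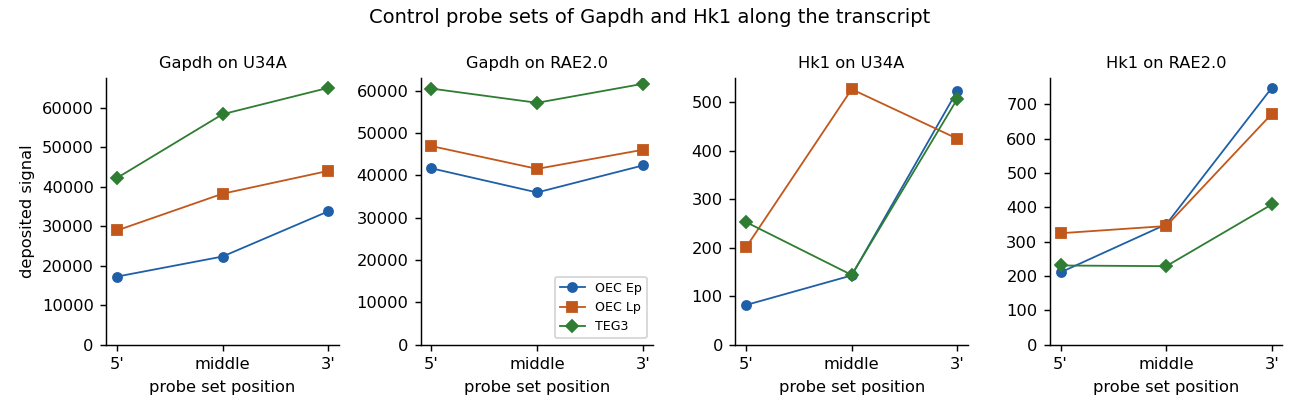
Deposited signal (linear axis from 0) of the 5′, middle and 3′ control probe sets of Gapdh and Hk1 on U34A and RAE2.0, 1 point per probe set and array. For Gapdh the TEG3 line lies above the others on both types; for Hk1 the 5′ signal is lowest in OEC Ep on both types, at 82, below the floor, on U34A and 211 on RAE2.0.

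Pkm, which encodes the pyruvate kinases that form pyruvate, was measured on U34A alone, at 25156 (OEC Ep), 27006 (OEC Lp) and 67082 (TEG3), 2.67-fold above OEC Ep in TEG3. Eno1, the common enolase, read 20275, 15687 and 28032 and 12036, 12059 and 26002 by its U34A probe sets but 30335, 41360 and 37338 on RAE2.0. TEG3 was highest on U34A and OEC Lp on RAE2.0, and the combined difference of TEG3 from OEC Ep was 1.46-fold (adjusted p = 0.451). Pgam1, a mutase, differed between types too, with a log2 difference of TEG3 from OEC Ep of 0.91 on U34A and -0.23 on RAE2.0. Pgk1, the first enzyme of the pathway to yield ATP and a classical hypoxia target, differed by log2 -0.27 ± 0.289 in OEC Lp and 0.02 ± 0.289 in TEG3 from OEC Ep (adjusted p 0.680 and 0.989). Eno2, the enolase typical of neurons, read 4998, 2937 and 2647 on RAE2.0, highest in OEC Ep. The summed neuron, OEC and macrophage markers were all highest in OEC Ep on that type, and their part in the Eno2 signal was not tested.

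At the branch between lactate and mitochondria, Ldhb was lowest in TEG3 on both types but was not called, and Ldha could not be tested. Ldha, whose subunit favours lactate formation, was measured on RAE2.0 alone, at 49952 (OEC Ep), 29722 (OEC Lp) and 27495 (TEG3). It was highest in OEC Ep, and OEC Lp lay within 1.08-fold of TEG3. Ldhb, whose subunit favours lactate oxidation, read 3781, 5361 and 1706 and 3817, 3957 and 2463 on U34A and 4985, 6959 and 2848 on RAE2.0. Every Ldhb probe set was highest in OEC Lp and lowest in TEG3, 1.80-fold below OEC Ep and 2.34-fold below OEC Lp (limma adjusted p 0.177 and 0.135).

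The pyruvate dehydrogenase kinases, which inactivate the complex that feeds pyruvate to mitochondria, held no called gene. Pdk1, the form best known as a hypoxia target, read 405 (OEC Ep), 909 (OEC Lp) and 1471 (TEG3) by one RAE2.0 probe set and 415, 782 and 870 by the other, and 107, 72 and 190 on U34A, where only TEG3 exceeded the floor. TEG3 was highest by all 3 probe sets, 2.02-fold above OEC Ep in the fit, with OEC Ep floored on U34A (log2 1.01 ± 0.375, limma adjusted p = 0.204). Pdk2, the most widely expressed form, read 1091, 1026 and 550 and 2009, 1636 and 452 on U34A, and 954, 1215 and 332 and 202, 448 and 22 on RAE2.0. TEG3 was lowest in all 4 probe sets, 2.35-fold below OEC Ep (limma adjusted p = 0.129) and 2.85-fold below OEC Lp (0.131) in the fit, with 1 probe set floored in TEG3. The first of these differences was called, at log2 -1.84 and adjusted p = 0.0444, when each gene was represented by its brightest probe set. Pdk3 was measured on RAE2.0 alone and read 399, 1567 and 1508 by one probe set and 697, 2760 and 2593 by the other. Both put OEC Lp and TEG3 close together and above OEC Ep, by 3.94-fold and 3.75-fold. Pdk4, the fasting-induced form, was near the floor throughout, at gene-level signals of 230, 221 and 177 on RAE2.0 and below the floor on U34A.

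Promoter windows of Pdk1 and Pdk2 are shown side by side because the probe sets of these kinases ordered TEG3 oppositely, highest for Pdk1 and lowest for Pdk2. The Pdk1 window (plus strand, chr3:77113264-77113513) holds GCGTG at 2 places, and the Pdk2 window (minus strand, chr10:80483913-80484162) holds 1 site that reads ACGTG on both strands.
Pdk1: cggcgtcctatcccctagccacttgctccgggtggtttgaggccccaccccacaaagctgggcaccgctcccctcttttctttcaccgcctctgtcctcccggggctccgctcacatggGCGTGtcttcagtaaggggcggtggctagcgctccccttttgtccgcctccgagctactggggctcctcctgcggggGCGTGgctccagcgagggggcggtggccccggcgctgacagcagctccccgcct
Pdk2: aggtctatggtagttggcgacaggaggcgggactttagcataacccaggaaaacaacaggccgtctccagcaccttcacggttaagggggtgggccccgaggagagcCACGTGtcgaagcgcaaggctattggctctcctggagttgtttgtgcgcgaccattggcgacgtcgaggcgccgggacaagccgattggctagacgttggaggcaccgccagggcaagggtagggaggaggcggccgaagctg

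Of the oxygen sensing genes, Epas1 and Hif1a, which encode subunits of hypoxia-inducible factors, were highest in OEC Ep on RAE2.0. The hypoxia regulator Arnt, outside the set, was instead lowest in OEC Ep on both types. It read 392 (OEC Ep), 529 (OEC Lp) and 767 (TEG3) on RAE2.0 and 364, 563 and 501 on U34A. Epas1, which encodes HIF-2α, read 858 (OEC Ep), 56 (OEC Lp) and 254 (TEG3) by one RAE2.0 probe set and 12762, 889 and 1290 by the other. Both placed OEC Ep far above the other populations: OEC Lp was at least 8.56-fold lower and TEG3 5.78-fold lower at gene level, the log2 ratio for OEC Lp being -3.10 with the floor and -3.89 without it. These rest on 1 array per population, with no test. The summed OEC, macrophage and neuron markers were also highest in that OEC Ep array, and their part in the Epas1 ratios was not tested. Hif1a read 19610, 8183 and 12742 on RAE2.0 but 619, 633 and 737 on U34A. The U34A probe set showed no such drop, and the combined log2 difference of OEC Lp from OEC Ep was -0.61 ± 0.402 (limma adjusted p = 0.481). Egln1, the main oxygen-sensing hydroxylase, stayed within 1.10-fold between populations, at 2088, 1904 and 1974. Egln3, an oxygen sensor that is itself hypoxia-induced, read 467, 623 and 148 on RAE2.0 and 66, 358 and 42 and 561, 593 and 483 on U34A. It was highest in OEC Lp in every probe set, and TEG3 was lowest in those above the floor, 2.62-fold lower in TEG3 than OEC Lp in the fit (limma adjusted p = 0.215) and 1.73-fold lower than OEC Ep (0.337), the latter with floored signals in both populations by one U34A probe set.

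Of the hypoxia-induced genes outside metabolism none that was tested passed. Vegfa, the angiogenic growth factor, read 347 (OEC Ep), 1362 (OEC Lp) and 1423 (TEG3) by one RAE2.0 probe set and 795, 2394 and 3289 by the other. On U34A its 3 probe sets read 251, 75 and 109, then 256, 212 and 399, then 42, 149 and 580, and disagreed in sign between populations. The combined log2 differences from OEC Ep were 0.72 ± 0.542 in OEC Lp and 1.33 ± 0.542 in TEG3 (limma adjusted p 0.536 and 0.235). Ndrg1, a stress-induced gene of Schwann cells and many other cells, was measured on RAE2.0 alone at 4148, 8961 and 951 by one probe set and 954, 2685 and 247 by the other. Both gave the order OEC Lp, OEC Ep, TEG3: OEC Lp was 2.47-fold above OEC Ep, and TEG3 was 4.10-fold below OEC Ep and 10.1-fold below OEC Lp. Ankrd37, a small ankyrin repeat gene and hypoxia target, had the same order at 227, 436 and 165, at least 2.60-fold lower in TEG3 than OEC Lp. The mitophagy receptors and Ddit4, an inhibitor of mTORC1, varied less. Bnip3 read 2321, 3811 and 2650 and Ddit4 1242, 1523 and 1568 on RAE2.0, and Bnip3l differed by log2 -0.29 ± 0.326 in OEC Lp and -0.19 ± 0.326 in TEG3 from OEC Ep (adjusted p 0.689 and 0.785). Thus on RAE2.0 Vegfa was at least 2-fold higher in TEG3 than OEC Ep while Ndrg1 was at least 2-fold lower and Bnip3, Bnip3l and Ddit4 lay within 1.26-fold.

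**Figure D4:**
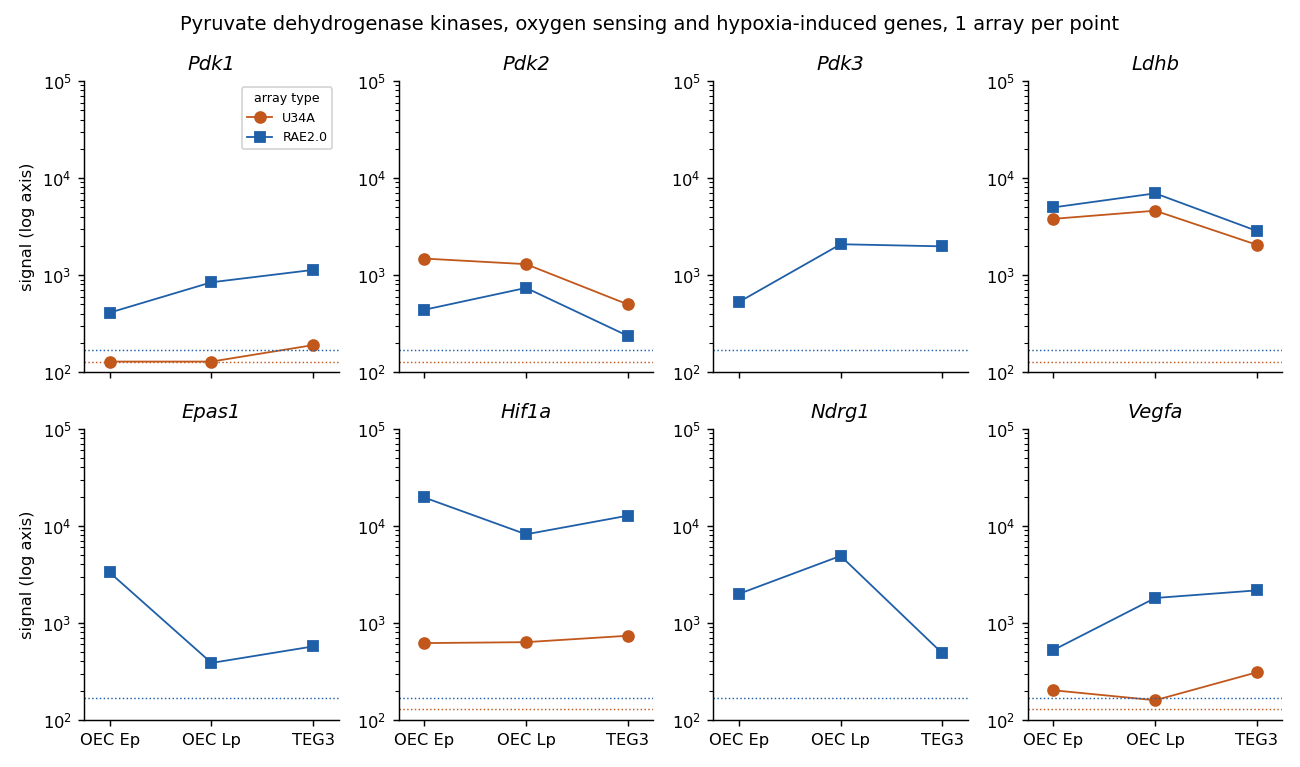
Gene-level signal (log axis, after the floor, dotted lines) of Pdk1, Pdk2, Pdk3, Ldhb, Epas1, Hif1a, Ndrg1 and Vegfa in OEC Ep, OEC Lp and TEG3, 1 array per point, circles for U34A and squares for RAE2.0. Ldhb and Pdk2 are lowest in TEG3 on both types, Epas1 is highest in OEC Ep, and Hif1a differs between types.

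Among the glycogen genes, the brain glycogen phosphorylase Pygb was called higher in OEC Lp than OEC Ep. Cell type markers also differed between these populations, and their part in this result was not tested. Pygb read 3244 (OEC Ep), 13424 (OEC Lp) and 8711 (TEG3), then 112, 1375 and 482, then 543, 1481 and 1437 by its U34A probe sets, and 2038, 6300 and 4904 on RAE2.0. All 4 probe sets were lowest in OEC Ep and highest in OEC Lp. Pygb rose in OEC Lp against OEC Ep 3.91-fold in the fit (log2 1.97 ± 0.322 SE, limma adjusted p = 0.0277, higher on both types, OEC Ep floored in 1 probe set), and TEG3 was 2.68-fold above OEC Ep without passing (adjusted p = 0.0797). Between TEG3 and OEC Lp the log2 difference was -0.54 ± 0.322 (adjusted p = 0.509). The call was lost when any 1 of the 6 arrays was left out (adjusted p 0.102 to 0.260, log2 1.71 to 2.23), with no floor (0.0896), with the floor at the 20th percentile (0.0695), with no filter on dim probe sets (0.169), without the array-type block (0.945) and with only the 4 arrays compared (0.102), and it was kept when only probe sets above the floor on all arrays were used (0.0194). The window before the start of Pygb, the 1 gene of the set that rose, lies on the plus strand at chr3:160071891-160072140 and has 1 core site.
Pygb: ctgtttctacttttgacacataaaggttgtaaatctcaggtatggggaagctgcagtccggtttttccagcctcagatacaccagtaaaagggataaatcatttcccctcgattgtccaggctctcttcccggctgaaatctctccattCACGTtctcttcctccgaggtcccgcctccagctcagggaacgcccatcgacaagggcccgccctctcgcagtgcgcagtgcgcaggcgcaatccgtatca

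The liver phosphorylase Pygl had a different order. It read 1029, 95 and 791 on RAE2.0 in OEC Ep, OEC Lp and TEG3, and 23, 51 and 328 on U34A, where only TEG3 exceeded the floor. TEG3 was above OEC Lp on both types, 3.47-fold in the fit (limma adjusted p = 0.273), while OEC Ep was high on RAE2.0 alone. Gys1, the muscle glycogen synthase, was measured on RAE2.0 only, at 469, 1199 and 1161, 2.56-fold and 2.48-fold above OEC Ep in OEC Lp and TEG3. Gys1 thus had the order of Pygb on the same 3 arrays. Pgm1, which links glucose 1-phosphate to glycolysis, had U34A probe sets that disagreed: one read 107, 306 and 514 and another 1281, 773 and 917. Its combined log2 differences from OEC Ep were -0.17 ± 0.355 in OEC Lp and 0.30 ± 0.355 in TEG3 (adjusted p 0.830 and 0.684).

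The types did not always give the same direction. In OEC Lp against OEC Ep 12 of the 23 genes (52.2%) had the same sign on U34A and RAE2.0, against 62.4% of all tested genes. In TEG3 against OEC Ep it was 13 (56.5%, all genes 64.5%), and in TEG3 against OEC Lp 19 (82.6%, all genes 57.0%). A ratio of 0, as where both populations lay at the floor on a type, was counted as no shared sign. This held for the set and for all genes, so these shares mix opposite directions with floored ties. Slc16a3 and Pygl in OEC Lp had no U34A difference beside a large one on RAE2.0, and Vegfa had opposite signs (-0.34 and 1.78). Within a type, of 28 sets of several probe sets for 1 gene, 5, 6 and 1 held ratios of opposite sign beyond 0.1 on the log2 scale in the 3 comparisons, in the order given above; Pfkfb3, Pgm1, Vegfa, Pgk1, Pgam1, Pfkm and Pdk4 were the genes concerned.

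**Figure D5:**
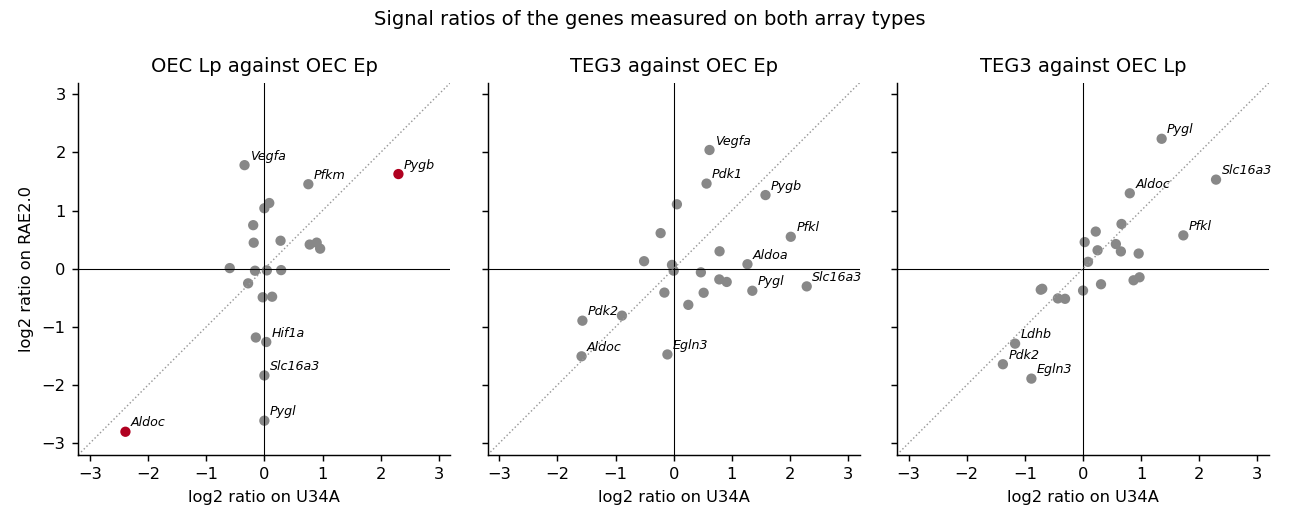
Log2 ratio on U34A (horizontal axis) against log2 ratio on RAE2.0 (vertical axis) for the 23 genes measured on both types, 1 panel per comparison; the dotted line marks equal ratios and red points are genes that passed. In OEC Lp against OEC Ep the points of Pdk1, Pygl and Slc16a3 lie on the vertical axis, the U34A signals of Pdk1 and Pygl being at the floor in both. Aldoc and Pygb are the 2 that passed. In TEG3 against OEC Lp 19 of 23 lie in the lower left or upper right quadrant.

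Core hypoxia response sites were common before the starts of these genes. ACGTG or GCGTG on either strand occurred within 250 bases upstream in 26 of the 35 genes with a RefSeq window (74.3%), and in 58.4% of 2611 tested genes with a window. Not all of the 35 were among the tested genes. Counted by window, the share was 67.5% of the set's 40 windows and 56.3% of 2821 windows of tested genes. It was 36.7% of all 33469 windows of the same length, and no test compares these shares. Bnip3l, Ndrg1 and Pgk1 had no window in the table used. Sites were present before Aldoc, which fell in OEC Lp, before Pygb, which rose, and before genes with no called difference, such as Slc2a1 with 4 sites and Ldha with 3, and these letters were not found before Epas1 or Vegfa. A match describes the sequence only, and binding was not measured.

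Other genes of the same pathways, from a list of 101, gave 52 tested genes. In OEC Lp against OEC Ep 1 rose (2.11% of all genes did) and none fell (4.02%), in TEG3 against OEC Ep 2 rose (0.639%) and none fell (3.7%), and in TEG3 against OEC Lp none rose (0.192%) or fell (1.02%). At an unadjusted p under 0.05, 3 were higher and 3 lower in the last, 11.5% of the 52 against 15.4% of all genes. Lox, a collagen cross-linking enzyme and hypoxia target, read 1063 (OEC Ep), 5321 (OEC Lp) and 7689 (TEG3) by U34A and 3616, 32044 and 17343 on RAE2.0. OEC Ep was lowest on both types, and Lox rose 6.66-fold in OEC Lp and 5.89-fold in TEG3 (limma adjusted p 0.0236 and 0.0372). Plod2, a collagen lysyl hydroxylase and hypoxia target, read 1426, 1804 and 6210 on U34A and 2205, 1604 and 7958 on RAE2.0, with TEG3 alone high. It rose 3.96-fold in TEG3 against OEC Ep (limma adjusted p = 0.0401) and was 4.13-fold above OEC Lp (0.0594). These 3 calls were lost when any 1 of the 6 arrays was left out (adjusted p 0.0691 to 0.357), with no floor (0.0791 to 0.106), with no filter on dim probe sets (0.192 to 0.238), without the array-type block (0.558 to 0.990) and with only the 4 arrays compared (0.0691 to 0.127). The calls in TEG3 were also lost with the floor at the 20th percentile (0.0641 and 0.0820), and that of Lox with the brightest probe set (0.0524), while Plod2 against OEC Lp passed with only probe sets above the floor on all arrays (0.0292) and with a robust, trended prior (0.0405). Its relative Plod1 was lower in TEG3 than OEC Ep on both types (log2 -1.90 ± 0.391, adjusted p = 0.0607), as was Zfp36l1, an RNA-binding protein (log2 -1.48 ± 0.294, 0.0580), whereas Tfrc, the transferrin receptor, was higher (log2 2.10 ± 0.504, 0.0906).

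None of the 11 further glycolysis and glucose uptake genes passed in any comparison. The lowest p in OEC Lp against OEC Ep was that of Pfkfb4, a relative of Pfkfb3, which read 928, 364 and 464 on U34A and 1853, 220 and 360 on RAE2.0. OEC Ep was highest on both types, 4.63-fold above OEC Lp in the fit (limma adjusted p = 0.0649). Pdha1, the pyruvate dehydrogenase subunit that the Pdk kinases phosphorylate, read 3323, 7467 and 4069 on U34A and 3796, 9014 and 4509 on RAE2.0. OEC Lp was highest on both types, 2.31-fold above OEC Ep (limma adjusted p = 0.0827) and 1.92-fold above TEG3 (0.226). The 2 pentose phosphate, 7 pyruvate entry, 7 glycogen and 6 hypoxia regulator genes tested likewise held no called gene.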

How the data were processed

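The authors deposited MAS5 signal intensities, linear and as whole numbers with no detection calls; MAS5 is named in the submitters' processing notes. The design text names U34A arrays only. Arrays of a type were brought to a common mean after trimming 2% at each end, the 40th percentile of each type served as the floor, probe sets were kept if above it on at least 1 array, and control probe sets (59 and 57) were left out. Log2 signals of a gene's single-symbol probe sets were averaged, symbols being taken from the platform annotation. limma 3.58.1 in R 4.3.3 was fitted over all 6 arrays with population and array type, the latter being also the replicate number (2 residual degrees of freedom, 3.56 from the prior), and its p-values were adjusted over 3131 genes; the script was tested on simulated data. The array types pair the populations because their probes differ. The number of arrays limits the precision.

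The genes, lists and tests were chosen with earlier results of these data known. Values are printed for called genes, for the 4 largest differences in each direction per comparison and for genes on 1 type with a ratio of at least 2; of other pathway genes, the called ones and up to 4 with the lowest p per comparison. Genes of the set outside this rule are given as examples of their role. Alternatives varied the floor, filter, scaling, probe set choice, control probe sets, block, prior and arrays used. Promoter windows are from RefSeq (GRCr8). Of the cell type lists, the 2 endothelial markers used on RAE2.0 summed to 343 (OEC Ep), 382 (OEC Lp) and 336 (TEG3), and the 5 muscle-like ones to 20222, 1428 and 11018 on RAE2.0 (3849, 1260 and 1936 without Tagln) and 4 of them to 12328, 8749 and 5272 on U34A (2993, 597 and 645 without Tagln), with 2 of 4 lower in OEC Lp and 1 of 4 in TEG3 than in OEC Ep by the same test.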

Additional observations from a re-analysis of the deposited data

How the results depend on the processing

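Aldoc and Pygb kept their direction under every alternative that gave a value, at log2 differences of -3.86 to -2.29 and 1.71 to 2.23, but not their calls (above). The counts are of all genes called in 3 comparisons, the first OEC Lp with OEC Ep, the second TEG3 with OEC Ep and the third TEG3 with OEC Lp, which were 192, 136 and 38, and of the set's genes, which were 2, 0 and 0. With no floor they were 66, 11 and 0, with 0 of the set in the first; with the floor at the 20th percentile the third was 4, with 0 of the set in the first; with no filter on dim probe sets 1, 1 and 0, with 0 of the set. Requiring every array above the floor gave 74 in the first, with 1 of the set and Aldoc not tested. The brightest probe set gave 1 of the set, Pdk2, in TEG3 against OEC Ep. Without the array-type block, which is the replicate block, 0 genes were called in each comparison and 0 of the set. A robust, trended prior gave 65 in the third. With the 4 arrays compared, 41, 0 and 0 were called, and 0 of the set. Leaving out 1 array gave 0 to 41 genes in the first and 0 to 0 in the others, and 0 of the set; the array left alone is then assumed to vary like the other groups. Apart from those arrays, 654 of 675 values of single tested genes kept direction and side of the threshold. Only 2 of the set's results were called, so this count mainly covers values that stayed uncalled. The 2 called results lost their call in 10 of the 675 values. Epas1 on RAE2.0 moved to -3.89 (OEC Lp against OEC Ep) and 1.36 (TEG3 against OEC Lp) without the floor. No called value reversed. Signals near the floor limit Pdk1, Pygl, Pfkfb3 and Pdk4.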

Other observations

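Further pathway genes were measured on RAE2.0 alone, or differently on each type; they were chosen after their values were seen and those on both types did not pass the limma test in any comparison. Car9, a carbonic anhydrase and one of the most hypoxia-responsive genes known, read 191 (OEC Ep), 552 (OEC Lp) and 1144 (TEG3), so that it was highest in TEG3, where Ndrg1 and Ankrd37 were lowest on the same arrays. Adm, which encodes the vasodilator adrenomedullin, read 1240, 1279 and 168 (the floor) on RAE2.0 but 315, 336 and 454 on U34A, so the types differed on TEG3. Bpgm, which makes 2,3-bisphosphoglycerate from a glycolytic intermediate, read 7424, 1615 and 1503, highest in OEC Ep. Pck2, the mitochondrial phosphoenolpyruvate carboxykinase, read 781, 2497 and 2438, lowest in OEC Ep, the order also seen on these arrays for Pdk3 and Gys1. Slc16a7, a monocarboxylate transporter with high affinity for pyruvate, read 784, 2012 and 193 on RAE2.0 and 204, 183 and 128 (the floor) on U34A, lowest in TEG3 on both types, as Ldhb and Pdk2 were. Slc16a1, the widely expressed monocarboxylate transporter, read 2352, 6029 and 4940 on RAE2.0 and 377, 595 and 1357 on U34A, lowest in OEC Ep on both.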
